A study of Mus musculus with 3 samples.

Results

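The mandibular condyle of heterozygous Dspp+/- mice (HE) was compared with that of homozygous null Dspp-/- mice (HO), to ask how the loss of a single Dspp allele and the loss of both differ in this tissue. Gene expression was measured by RNA sequencing at 4 months of age, with 1 library per genotype and a further library from WT (Dspp+/+) mice, which serves here only as context. The null mice carry a global Dspp knockout on the C57BL/6 background, the heterozygotes came from crossing them with C57BL/6 WT mice, and the condyles kept cartilage and subchondral bone together. The WT and the Dspp+/- library each hold pooled tissue from 3 animals, and how many animals the Dspp-/- library holds is not given in the sources used here. The knockout is not limited to the condyle, and the study describes severe tooth defects in the null mice and minor ones in the heterozygotes. Every difference below is a difference between single libraries, with no replicates and no test between genotypes.

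Of the 26970 genes in the table, 13026 averaged 1 FPKM or more across the WT, HE and HO libraries and were compared. FPKM is the number of sequenced fragments per kilobase of a gene's exons and scaled to the size of the library. The difference is given as log2((HE + 1)/(HO + 1)) in FPKM, so a positive value is a higher level in HE, and the added 1 shrinks the differences of low genes. A fold without the added 1 follows in the direction of the higher library, with a 95% Clopper-Pearson interval from the fragments behind the values. These intervals and the floor of 3 fragments cover counting error only, and not the variation between animals. A gene can enter through the library in which it is high, as the limit is on the mean: Il1rn (mean 1.00015 FPKM) and Ankrd35 (1.002) lay just inside it, and Itpkc (0.999) and Ntn3 (0.999) just outside.

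DSPP is a secreted phosphoprotein of dentin and bone that is cut into dentin sialoprotein and dentin phosphoprotein. It belongs to the SIBLING family of acidic, integrin-binding matrix proteins, which take part in the mineralization of collagen. The condyle is a head of bone covered by fibrocartilage. Its deep chondrocytes become hypertrophic, make type X collagen and are replaced by bone, its marrow forms blood cells, and chewing muscle inserts close by. The Dspp transcript is not analysed here, and no check of the labels by it was made. Other markers of the tissue were found as labelled, since the WT library held 6675 FPKM of Col1a1, 1353 of Bglap and 761 of Col2a1. Of 11 tooth genes, 5 were analysed here and only Dkk3, which is not restricted to teeth, reached a mean of 1 FPKM.

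The depth was 23613621 fragments for HE, 22253158 for HO and 20241576 for WT. Mitochondrial transcripts made up 36.9% of all FPKM in HE and 37.3% in HO, against 25.0% in WT. The level followed base composition, with a median log2 difference of -0.14 in the tenth of genes with the lowest GC content (median 40.9%) and 0.23 in the tenth with the highest (median 59.7%), over 12981 genes. The libraries also differed in sex-linked genes, and the sex of the animals is not given. Xist, the RNA of the inactive X chromosome, had 28.5 FPKM in HE, 26.5 in HO and 0.00551 in WT, and 4 Y-linked genes together held 2584 fragments in HE, 3341 in HO and 4242 in WT. Both mutant libraries thus held Xist and Y-linked transcripts together, with a Y-linked level 0.729-fold (0.692 to 0.767) as high in HE as in HO, whose part in the results was not tested.

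At the 2-fold threshold, 104 genes were higher in HE (0.798% of those compared) and 111 were higher in HO (0.852%), while the median of all genes was 0.04. Without a threshold, 7207 of the 13026 genes (55.3%) were higher in HE, the share beside which the counts of list members higher in either library stand. Scaling to housekeeping genes turned these counts into 82 and 154, which lowered the share of genes higher in HE from 48.4% to 34.7%. Among protein-coding genes, 45 were higher in HE and 64 in HO. The remaining calls were 42 immunoglobulin variable segments, 29 pseudogenes and 35 other RNAs. Dnajb2 (log2 1.01) lay just inside the threshold and Trib3 (0.998) just short of it, and at the other end Col3a1 (-1.0004) was inside and Gm26359 (-0.997) outside. The counting interval of the fold excluded 1 for 201 of the 215 genes, and 50 of them rested on fewer than 50 fragments over both libraries.

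The position of WT differed between the 2 sets. Of the 111 genes higher in HO, WT lay above both mutants for 45, between them for 45 and below both for 21. Of the 104 genes higher in HE, WT lay above both for 6, between them for 51 and below both for 47. Over all 13026 genes compared, WT lay below both mutants for 5434, and the order was WT, then HO, then HE for 2286. The counts of WT position here and in the lists below stand beside these. The widest differences toward HO included fat, cartilage and clock genes and the fast muscle gene Myh4. Those toward HE included immunoglobulins, early neutrophil granules, slow muscle and several short or repeated RNAs.

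**Figure D1:**
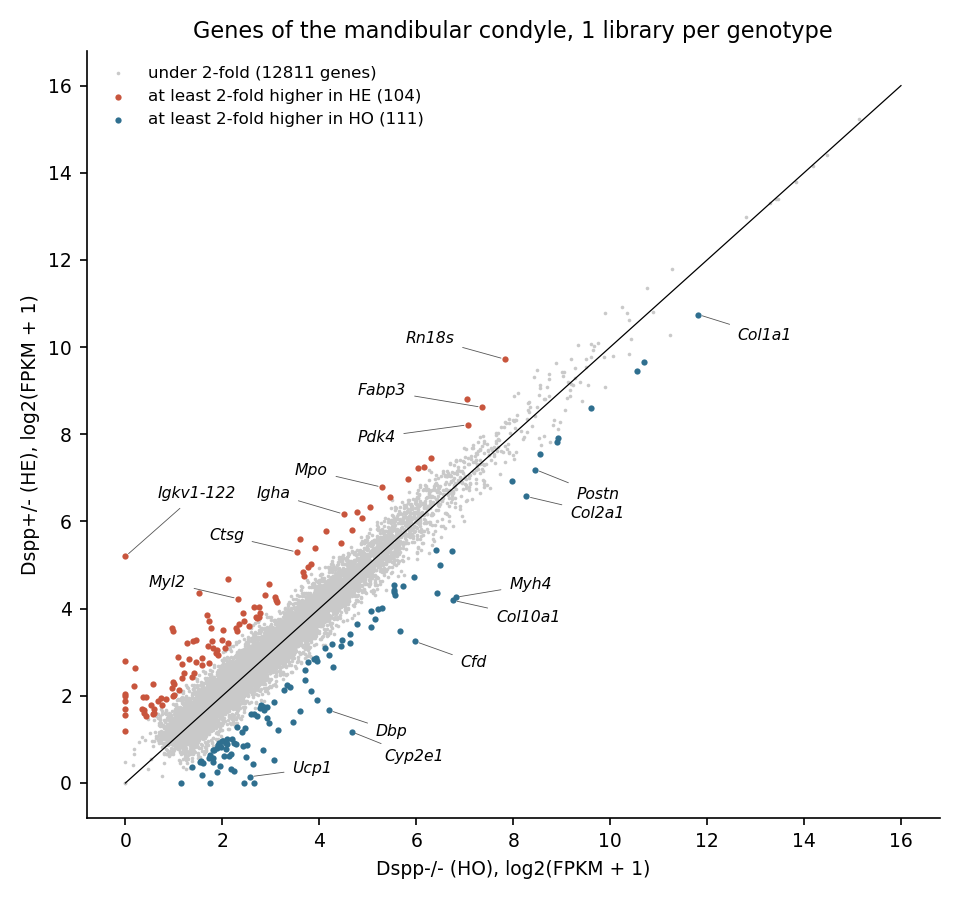
Each point is 1 of 13026 genes, with its level in the HO library (x axis) and the HE library (y axis) as log2(FPKM + 1), and the line marks equal levels. The 104 red genes were at least 2-fold higher in HE and the 111 blue genes at least 2-fold higher in HO, with collagens among the most abundant blue points.

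Genes of the bone-forming cells were lower in HE than in HO. Of 24 osteoblast genes compared, 23 were higher in HO, 6 of them at least 2-fold, and the median log2 difference was -0.64. In 23 of the 24 the order was WT, then HO, then HE. Col1a1, the chain that makes up most of bone collagen, had 1719 FPKM in HE, 3609.7 in HO and 6675 in WT. Its partner chain Col1a2 had 699.8 FPKM in HE, 1496 in HO and 2779.9 in WT, so both chains of type I collagen were about as far apart, with log2 differences of -1.07 and -1.10. Sparc, which binds collagen and mineral, had 1245 FPKM in HE, 2401 in HO and 4675 in WT. The 3 libraries thus stood in the same order for the most abundant bone transcripts, with HE at the bottom.

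The osteoblast genes did not all differ to the same degree. Cthrc1, a secreted protein of matrix-forming cells, had 10.9 FPKM in HE, 32.5 in HO and 60.1 in WT, the widest gap of the list at 2.97-fold (2.65 to 3.33). Postn, which encodes periostin of the periosteum and fibrous tissue, had 145 FPKM in HE, 351 in HO and 431 in WT and was 2.42-fold (2.38 to 2.45) higher in HO. Bglap, which encodes the late osteoblast product osteocalcin, had 386 FPKM in HE, 778 in HO and 1353 in WT, an uncertain value because 38.7% of its 100-base stretches match other genes as well. The regulators lay closer together than these products. Sp7, a transcription factor required for osteoblasts, had 23.6 FPKM in HE, 34.6 in HO and 65.4 in WT, which was 1.47-fold (1.38 to 1.56). Dlx5, another osteoblast transcription factor, had 15.6 FPKM in HE, 21.01 in HO and 33.97 in WT, and Alpl, the phosphatase that frees phosphate for mineral, had 70.8 FPKM in HE, 97.8 in HO and 203 in WT. Phospho1 was the exception of the list, with 1.44 FPKM in HE and 1.04 in HO, but 89.6% of its exons overlap another gene.

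The 4 SIBLING relatives of DSPP that were compared were all higher in HO, 1 at least 2-fold, with a median of -0.44. Spp1, which encodes osteopontin, had 814 FPKM in HE, 1661 in HO and 2474 in WT and was 2.04-fold (2.01 to 2.07) higher in HO. Ibsp, which encodes bone sialoprotein, had 433 FPKM in HE, 685 in HO and 1643 in WT, or 1.58-fold (1.56 to 1.61). The family's osteocyte members were nearer to each other, with 107 FPKM in HE and 124 in HO for Mepe and 70.4 FPKM in HE and 79.5 in HO for Dmp1, log2 differences of -0.21 and -0.17. These genes lie beside Dspp in the genome. Within 10 Mb of Spp1 by the deposited positions, 126 genes were compared, their median was 0.03, and Spp1 alone passed 2-fold.

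Osteocytes, the cells buried in bone, showed smaller differences, with a median of -0.21 and 9 of 11 genes higher in HO. Phex, a peptidase that controls phosphate, had 18.8 FPKM in HE, 34.4 in HO and 52.4 in WT. Sost stood on the other side. It encodes sclerostin, an osteocyte inhibitor of Wnt signalling, and had 167 FPKM in HE, 111 in HO and 272 in WT, so that it was 1.501-fold (1.45 to 1.55) higher in HE although WT was above both. The sum of the osteocyte genes was 464 FPKM in HE and 475 in HO, against 1077 in WT. Sost, opposite to most of the list, made up 167 FPKM of this sum in HE and 111 in HO.

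Wnt signals drive bone formation and are held back by secreted inhibitors. Of 20 genes of the pathway compared, 18 were higher in HO and 1 of them by 2-fold, with a median of -0.30. The inhibitor Frzb, made by chondrocytes, had 1.83 FPKM in HE, 6.59 in HO and 10.7 in WT, or 3.600-fold (2.98 to 4.38). Wif1, a secreted inhibitor that binds Wnt proteins, had 63.5 FPKM in HE, 126 in HO and 234 in WT, and Dkk2 had 0.514 FPKM in HE, 1.89 in HO and 2.15 in WT. The receptors Lrp5 (15.5 FPKM in HE and 15.2 in HO) and Lrp6 (10.4 FPKM in HE and 10.8 in HO) were level. Frzb, Wif1 and Dkk2 were the widest of the list, and Sost, an inhibitor too, was opposite. BMP and TGF-beta genes had a median of -0.09 with 19 of 27 higher in HO and none at 2-fold. IGF, FGF and hedgehog genes were divided 10 and 10.

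Osteoclasts, the cells that resorb bone, had 18 of 20 genes higher in HO, with a median of -0.42 and none at 2-fold. Ctsk, the protease that digests bone collagen, had 279 FPKM in HE, 481 in HO and 863 in WT. Acp5, the phosphatase by which these cells are stained, had 248 FPKM in HE, 399 in HO and 756 in WT. In 17 of the 20 the order was WT, then HO, then HE, as for osteoblasts. Car2 was the widest exception (65.4 FPKM in HE, 49.4 in HO and 9.83 in WT), and red blood cells also make this carbonic anhydrase. Among the signals that form osteoclasts, Tnfsf11, which encodes RANKL, had 4.85 FPKM in HE, 8.56 in HO and 14.3 in WT, and its receptor gene Tnfrsf11a had 2.101 FPKM in HE, 3.91 in HO and 5.73 in WT. The decoy receptor gene Tnfrsf11b was level at 13.9 FPKM in HE and 14.8 in HO. Src, a kinase needed for the resorbing border, had 5.14 FPKM in HE, 5.91 in HO and 12.1 in WT.

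**Figure D2:**
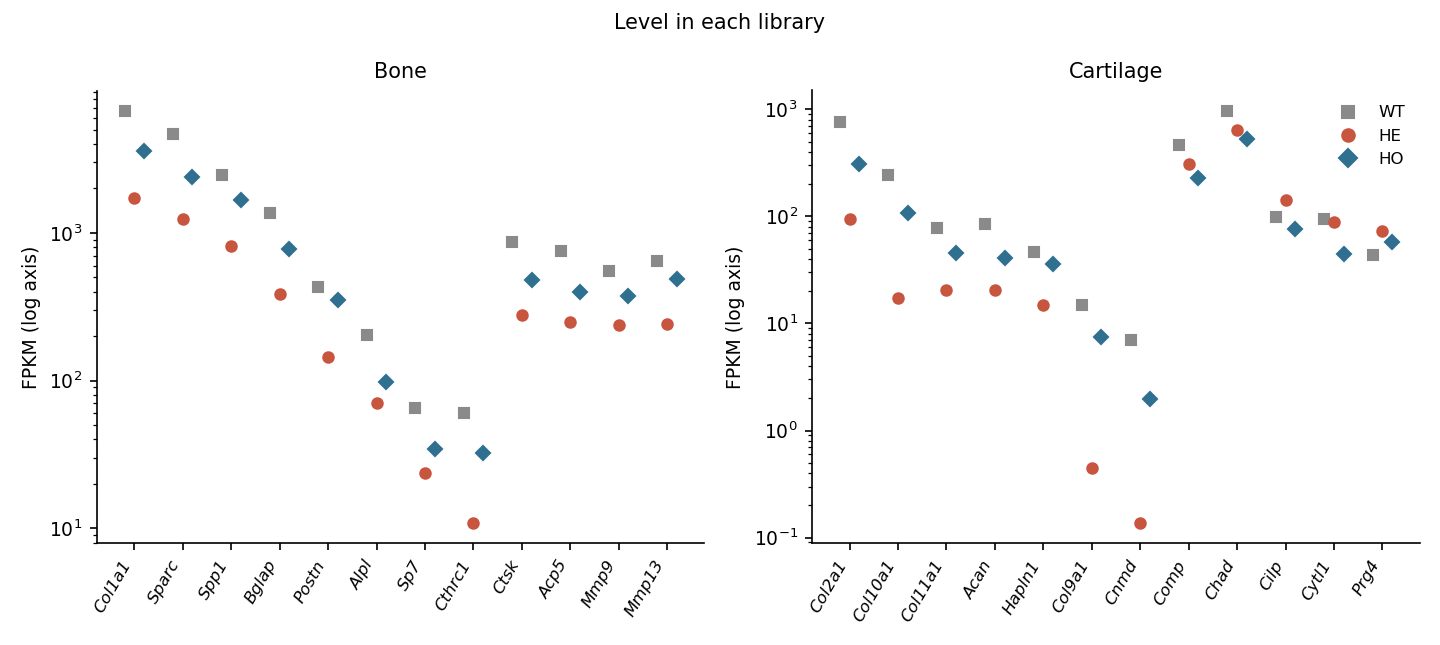
Level in FPKM on a log axis in the WT (square), HE (circle) and HO (diamond) libraries for 12 bone genes and 12 cartilage genes. HE was lowest for all 12 bone genes shown, while among the cartilage genes HE was lowest for the first 7 and above HO for Comp, Chad, Cilp, Cytl1 and Prg4.

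Cartilage genes did not all stand on the same side. Of 25 compared, 18 were higher in HO, 10 of them at least 2-fold, none was 2-fold higher in HE, and the median was -0.55. The 7 cartilage collagens measured (chains of types II, IX, X and XI) were all higher in HO. Col10a1, the collagen of hypertrophic chondrocytes, had 17.3 FPKM in HE, 107 in HO and 246 in WT, or 6.22-fold (5.86 to 6.61). Col2a1, the main collagen of hyaline cartilage, had 94.2 FPKM in HE, 308 in HO and 761 in WT, or 3.27-fold (3.22 to 3.32). Col9a1 had 0.443 FPKM in HE, 7.39 in HO and 14.9 in WT and 53 fragments in HE against 834 in HO, the widest fold of the list at 16.7-fold (12.6 to 22.5). Thus the HO library lay between WT and HE for each of these collagens.

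The other matrix genes of cartilage were divided. Acan, which encodes the large proteoglycan aggrecan, had 20.4 FPKM in HE, 40.4 in HO and 84.1 in WT, and Hapln1, which links aggrecan to hyaluronan, had 14.99 FPKM in HE, 36.2 in HO and 46.8 in WT. Cnmd, which encodes the growth-plate protein chondromodulin, had 0.138 FPKM in HE, 1.98 in HO and 6.94 in WT and rested on 6 fragments in HE against 81 in HO. The 7 cartilage genes higher in HE included Cytl1, Cilp, Comp and Prg4. Cytl1, a small secreted protein of chondrocytes, had 88.6 FPKM in HE, 44.5 in HO and 94.6 in WT, which was 1.99-fold (1.85 to 2.15). Cilp, which encodes an intermediate-layer protein, had 144 FPKM in HE, 76.3 in HO and 99.1 in WT, or 1.88-fold (1.83 to 1.94). Comp, a matrix protein of cartilage and tendon, had 312 FPKM in HE, 227 in HO and 462 in WT, and Prg4, which encodes the surface lubricant lubricin, had 73.4 FPKM in HE, 57.2 in HO and 43.8 in WT. For Cilp and Prg4 the HE library was above WT as well.

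Fibrous tissue and matrix enzymes leaned toward HO. Of 19 tendon and fibrous-layer genes, 13 were higher there, 2 at least 2-fold, with a median of -0.42. Lum, which encodes lumican, a proteoglycan of collagen fibrils, had 224 FPKM in HE, 478 in HO and 512 in WT. Fmod, which encodes the related fibromodulin, was level at 621 FPKM in HE and 621 in HO, though WT had 1032. Among 32 matrix remodelling enzymes, 26 were higher in HO, 2 at least 2-fold, with a median of -0.47. Lox, which cross-links collagen, had 39.4 FPKM in HE, 83.6 in HO and 129 in WT, and Mmp13, a collagenase of hypertrophic cartilage and bone, had 239.9 FPKM in HE, 487 in HO and 649 in WT. Mmp15, a membrane-bound protease, was the widest on the other side with 6.27 FPKM in HE, 4.19 in HO and 5.33 in WT.

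Among inflammatory mediators, 9 of 15 compared were higher in HO and the median was -0.11. Mmp2, a gelatinase, had 171 FPKM in HE, 259 in HO and 381 in WT, and Tlr4, the receptor for bacterial endotoxin, had 6.33 FPKM in HE, 8.91 in HO and 6.53 in WT. Fn1, which encodes fibronectin, had 449.8 FPKM in HE, 399.7 in HO and 528 in WT, so it was 1.13-fold (1.12 to 1.13) higher in HE. Il6 was under the comparison limit, with 0.0349 FPKM in HE, 0 in HO and 0.0407 in WT, which is at or under the floor of 3 fragments.

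In bulk tissue, fewer cells of a type and less RNA per cell cannot be told apart. Against the osteoblast sum of 6041 FPKM in HE and 11974 in HO, fast muscle genes summed to 17543.5 and 14520.8, erythroid genes to 3924 and 3801, and late neutrophil genes to 2899 and 4114. Their part in the bone and cartilage results was not tested. Smooth muscle and endothelial genes were nearly level, with medians of -0.02 and 0.06.

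**Figure D3:**
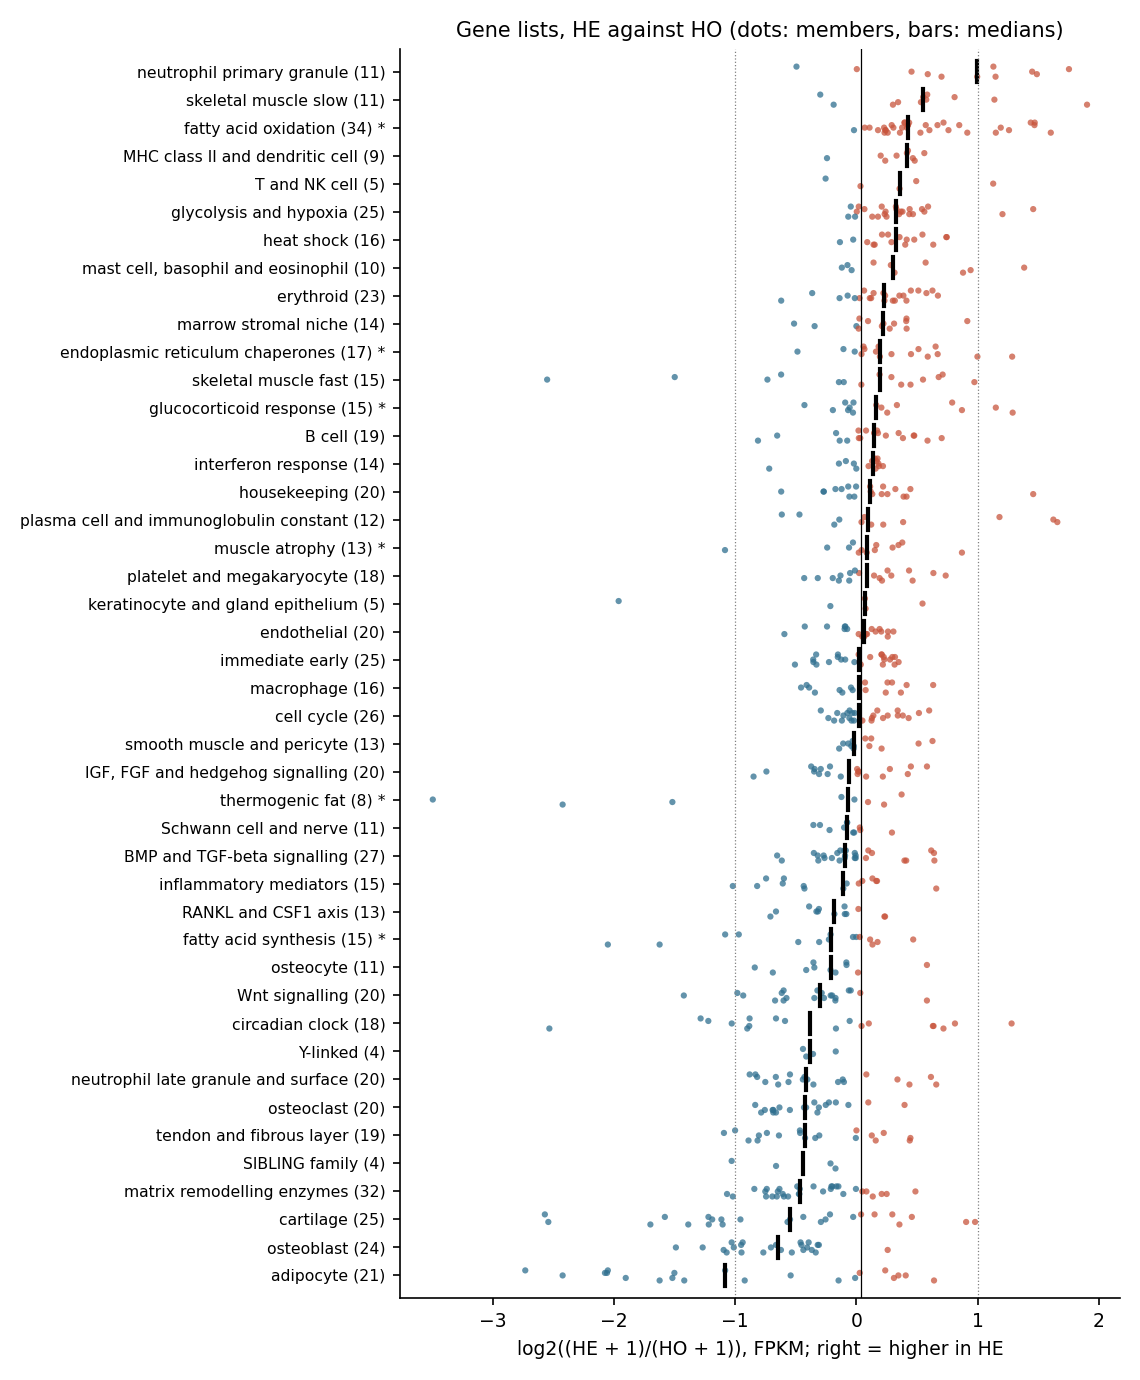
Each dot is a gene of the named list, placed by log2((HE + 1)/(HO + 1)), black bars are list medians, the solid line is the median of all genes (0.04), dotted lines mark 2-fold, and an asterisk marks lists added after values were seen. Numbers in parentheses count the genes compared, and the medians run from -1.08 for adipocyte genes to 1.00 for the primary granule genes of neutrophils.

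Fat cell genes had the lowest median of all lists, at -1.08, with 15 of 21 higher in HO and 11 at least 2-fold. The median was -0.08 when genes had to average 5 FPKM and -0.54 without genes shared with other lists. Cfd, which encodes adipsin, a protease secreted by fat cells, had 8.497 FPKM in HE, 62.04 in HO and 23.5 in WT, or 7.302-fold (6.25 to 8.57). Plin1, a coat protein of the fat droplet, had 0.501 FPKM in HE, 4.61 in HO and 1.41 in WT, and Cidec, which enlarges droplets, had 1.62 FPKM in HE, 9.903 in HO and 2.26 in WT. For these genes HO was above WT as well as above HE.

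Some enzymes that make fat stood on the same side as the droplet genes. Scd1, which desaturates fatty acids, had 19.7 FPKM in HE, 84.5 in HO and 32.1 in WT, and Fasn, the fatty acid synthase, had 5.300 FPKM in HE, 18.4 in HO and 8.69 in WT. Pck1, which supplies glycerol for fat storage, had 0.692 FPKM in HE, 6.12 in HO and 0.864 in WT. Over the 15 fatty acid synthesis genes, however, a list added after values were seen, only 10 were higher in HO, 3 at least 2-fold. The median was -0.21. The 6 fat cell genes higher in HE included Lpl, a lipase gene, with 119.8 FPKM in HE and 96.5 in HO, and Slc2a4, the insulin-dependent glucose transporter, with 88.3 FPKM in HE and 56.3 in HO. Muscle also makes both, and their source was not tested. Car3, a carbonic anhydrase of fat and muscle, was higher in HO with 38.8 FPKM in HE, 105 in HO and 85.1 in WT. The adipokine gene Adipoq had 6.47 FPKM in HE, 13.1 in HO and 5.795 in WT, and the fatty acid carrier gene Fabp4 had 32.3 FPKM in HE, 35.9 in HO and 21.8 in WT.

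Ucp1, the uncoupling protein of brown fat, had 0.104 FPKM in HE, 4.92 in HO and 0.423 in WT, from 4 fragments in HE against 179 in HO, which gave 47.5-fold (18.2 to 176). Cidea, a droplet protein of brown fat, had 0.532 FPKM in HE, 3.39 in HO and 0.798 in WT. Cyp2e1, a cytochrome P450 of liver and brown fat, had 1.26 FPKM in HE, 24.4 in HO and 2.56 in WT, or 19.4-fold (15.1 to 25.4). Its log2 value with the added 1, -3.49, was the widest toward HO of all genes compared, though the fold of Ucp1 was larger. Of the regulators of the brown fat programme, Prdm16 had 1.18 FPKM in HE and 1.04 in HO and Ppargc1a had 5.74 FPKM in HE and 4.75 in HO. Over the 8 thermogenic genes compared, a list added after values were seen, 3 were at least 2-fold higher in HO and the median was -0.07. A salivary gland gene, Bpifa2, was also higher in HO (0.211 FPKM in HE, 3.71 in HO and 0.0738 in WT), while the other 4 epithelial and gland genes compared were between -0.21 and 0.55 on the log2 scale. Where the fat and gland transcripts came from was not tested.

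Muscle genes were abundant in all 3 libraries, and the fibre types differed. Skeletal muscle builds its contractile filaments from isoforms that set the speed and metabolism of a fibre. Myh4 encodes the myosin heavy chain of the fastest type IIb fibres, and had 18.2 FPKM in HE, 111 in HO and 124 in WT, or 6.13-fold (5.87 to 6.39). Myh2, the chain of oxidative fast type IIa fibres, had 706 FPKM in HE, 359 in HO and 342 in WT, or 1.97-fold (1.95 to 1.99). Myh1, the type IIx chain, was level with 747 FPKM in HE, 726 in HO and 671 in WT. As shares of the summed FPKM of Myh1, Myh2, Myh4 and Myh7, Myh4 took 1.23% in HE, 9.29% in HO and 10.9% in WT, and Myh2 took 48.0%, 30.01% and 30.1%. The HO library was thus close to WT in its myosin makeup, and the HE library stood apart.

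Other fibre-type genes did not all follow the fibre they mark. Actn3, an actinin of the fastest fibres, had 31.02 FPKM in HE, 89.5 in HO and 122 in WT, and Pvalb, which encodes their calcium buffer parvalbumin, had 294 FPKM in HE, 453 in HO and 567 in WT. Myl2, the regulatory light chain of slow fibres, had 17.7 FPKM in HE, 4.01 in HO and 4.81 in WT, or 4.42-fold (3.75 to 5.24), and Tnnt1, which encodes slow troponin T, had 5.55 FPKM in HE, 1.98 in HO and 2.85 in WT. Of 11 slow muscle genes, 9 were higher in HE, 2 at least 2-fold, with a median of 0.55. The 2 exceptions were Lmod2 and Fhl2, with log2 values of -0.30 and -0.19. Fast muscle genes as a list were divided, with 9 of 15 (60%) higher in HE, near the share of all genes, and a median of 0.19. Beside Myh2, those higher in HE included Tnni2 (log2 0.71) and Tnnt3 (0.68), which encode fast troponins, and Atp2a1 (0.45), the calcium pump of fast fibres. Mstn, which encodes the muscle growth inhibitor myostatin, had 2.36 FPKM in HE, 6.13 in HO and 1.72 in WT.

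The fatty acid oxidation list was added after values were seen, so its counts only describe the genes chosen. Of its 34 genes compared, 33 were higher in HE, 7 at least 2-fold, with a median of 0.42. Pdk4, the kinase that turns pyruvate away from the mitochondrion, had 297 FPKM in HE, 133 in HO and 52.7 in WT. Acot2, a mitochondrial thioesterase, had 22.7 FPKM in HE, 6.81 in HO and 5.804 in WT, and Plin5, which ties fat droplets to mitochondria, had 18.97 FPKM in HE, 6.37 in HO and 5.26 in WT. For Acot2 and Plin5 the HO library was close to WT. Ucp3, a mitochondrial carrier of muscle, had 18.4 FPKM in HE, 7.48 in HO and 2.24 in WT. Fabp3, the fatty acid carrier of muscle, had 392 FPKM in HE, 163 in HO and 171 in WT, though 21.7% of its 100-base sequences occur in other genes. Core enzymes of the pathway showed smaller differences, such as Acadvl at 1.72-fold (1.61 to 1.84) and Cpt2 at 1.36-fold (1.26 to 1.47), and Ucp2 was level.

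Other metabolic and stress genes were on the HE side too. Of 25 glycolysis and hypoxia genes, 22 were higher there, 2 at least 2-fold, with a median of 0.33. Ldhb, the lactate dehydrogenase of oxidative tissue, had 149 FPKM in HE, 64.3 in HO and 61.3 in WT, while its counterpart Ldha was level at 158 FPKM in HE and 159 in HO. Heat shock genes were higher in HE for 14 of 16, with a median of 0.32 and none at 2-fold, led by Cryab, the small chaperone of muscle, with 794 FPKM in HE, 473 in HO and 401 in WT. Among 17 endoplasmic reticulum chaperone genes, a list added after values were seen, 14 were higher in HE, with a median of 0.19. Sdf2l1 had 15.4 FPKM in HE, 5.72 in HO and 7.22 in WT.

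**Figure D4:**
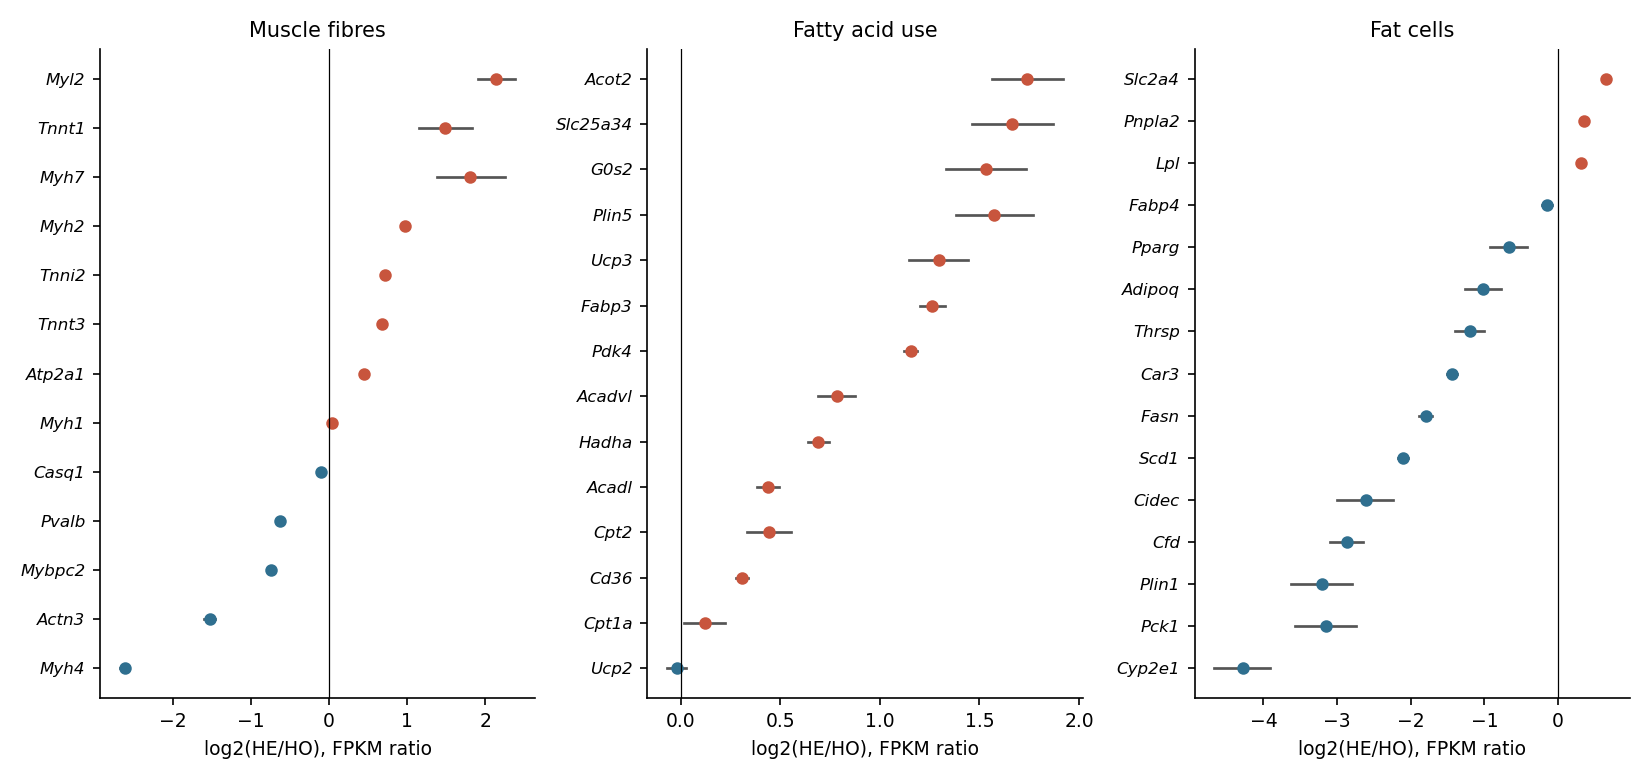
Fold between the libraries as log2(HE/HO) of FPKM without an added value, with 95% counting intervals as lines (hidden by the point where short), red where HE was higher and blue where HO was higher. Slow fibre genes such as Myl2 and fatty acid oxidation genes lie to the right, and Myh4, Actn3 and most fat cell genes lie to the left.

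Neutrophils, which form in the marrow, fill their primary granules early and their later granules as they mature. The medians of these stages lay on opposite sides, with exceptions in both lists. Of 11 primary granule genes, 10 were higher in HE, 5 at least 2-fold, with a median of 1.00. Among these 10, Hp was level (log2 0.003), and Calr (0.59) is also on the chaperone list. Mpo, the peroxidase of these granules, had 109 FPKM in HE, 38.3 in HO and 3.23 in WT, or 2.85-fold (2.74 to 2.98). Elane, which encodes neutrophil elastase, had 175 FPKM in HE, 78.3 in HO and 4.77 in WT, and Ctsg, which encodes cathepsin G, had 38.3 FPKM in HE, 10.7 in HO and 1.29 in WT. Both mutant libraries were far above WT for these genes, and HE was the highest. Clec11a, which stromal and bone cells also make, was the exception with 24.2 FPKM in HE, 34.5 in HO and 61.7 in WT.

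Of 20 late granule and surface genes, 15 were higher in HO, none at 2-fold, with a median of -0.42, and WT was below both mutants for all 20. S100a8, a subunit of calprotectin, had 542 FPKM in HE, 956 in HO and 133 in WT, and its partner S100a9 had 916 FPKM in HE, 1339 in HO and 232 in WT. Mmp8, a collagenase of the later granules, had 39.8 FPKM in HE, 67.6 in HO and 10.04 in WT, and Retnlg, a product of mature neutrophils, had 134 FPKM in HE, 211 in HO and 26.6 in WT. The 5 genes higher in HE were Il1b, Stfa2l1, Cebpe, Csf3r and Chil3, with log2 values from 0.08 for Chil3 to 0.66 for Il1b. Csf3r, the receptor for the growth factor G-CSF, had 28.8 FPKM in HE, 22.5 in HO and 4.24 in WT. The FPKM of Mpo, Elane, Prtn3 and Ctsg together amounted to 27.2% of that of S100a8 and S100a9 in HE, 6.70% in HO and 3.34% in WT.

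Of 10 genes of mast cells, basophils and eosinophils, 7 were higher in HE, 1 at least 2-fold, with a median of 0.30 that ran from 0.05 to 0.36 over the alternative settings. Prss34, a protease of basophils and mast cells, had 15.4 FPKM in HE, 5.304 in HO and 0.607 in WT, and the basophil protease gene Mcpt8 had 8.36 FPKM in HE, 3.87 in HO and 0 in WT. Eosinophil genes were nearer to level, with 15.6 FPKM in HE and 16.1 in HO for Epx, their peroxidase. Their log2 values ran from -0.12 for Ear1 to 0.31 for Prg2. Among 5 T and NK cell genes, 4 were higher in HE, with a median of 0.36 that ran from 0.10 to 1.13. Nkg7, a granule protein of NK and cytotoxic T cells, had 13.1 FPKM in HE, 5.46 in HO and 0.432 in WT. Of 9 MHC class II and dendritic cell genes, 8 were higher in HE, with a median of 0.42, among them Cd74, the invariant chain, with 131 FPKM in HE, 97.8 in HO and 79.3 in WT. Macrophage genes were divided 8 and 8.

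Antibody genes differed by class. Igha, the constant region of IgA, had 70.8 FPKM in HE, 21.8 in HO and 8.703 in WT, or 3.25-fold (3.06 to 3.46), and Ighg2b had 53.6 FPKM in HE, 16.7 in HO and 3.32 in WT, or 3.21-fold (2.99 to 3.45). Ighg2c had 27.8 FPKM in HE, 11.7 in HO and 3.84 in WT. By contrast Ighm, the constant region of IgM, had 292 FPKM in HE, 332 in HO and 193 in WT, Igkc, that of the kappa light chain, had 841 FPKM in HE, 721 in HO and 301 in WT, and Jchain, which joins IgA and IgM units, was level at 28.4 FPKM in HE and 26.03 in HO. Of the 12 plasma cell and constant region genes, these 3 (Igha, Ighg2b and Ighg2c) were at least 2-fold higher in HE, while Ighg3 was on the other side (5.06 FPKM in HE, 7.39 in HO and 3.54 in WT).

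Antibody variable segments held many of the widest differences. Of 103 compared, 27 were at least 2-fold higher in HE and 15 in HO, so 40.8% passed the threshold. Igkv1-122 had 323 fragments in HE and 0 in HO, and the lower end of its counting interval was 82.0-fold higher in HE. With HO set to the floor of 3 fragments, the fold was 101. Ighv1-7 had 178 fragments against 16, while Ighv7-1 had 3 against 42, or 14.9-fold (4.75 to 74.9) higher in HO. Ighv1-54 (96 against 8) stood on the HE side, and Igkv8-30 (24 against 119) and Ighv1-4 (11 against 61) on the HO side. Summed over segments, Igkv genes held 3736 fragments in HE and 2456 in HO, and Ighv genes 2312 and 1757. The most used kappa segment took 12.1% of the Igkv fragments in HE (Igkv1-110) and 7.53% in HO (Igkv1-135). Variable segments resemble each other, so fragments may be divided between them.

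Of the B cell genes, 2 used by precursor cells, Dntt and Vpreb1, were the widest toward HO. Vpreb3 and Rag1, which precursor cells use too, were nearer to level, with log2 values of -0.17 and 0.08. Dntt, the polymerase that adds bases at V(D)J junctions, had 0.776 FPKM in HE, 2.12 in HO and 0.819 in WT, and Vpreb1, part of the surrogate light chain, had 0.565 FPKM in HE, 1.46 in HO and 1.401 in WT. Cd79a, part of the B cell receptor, had 21.6 FPKM in HE, 12.9 in HO and 5.49 in WT. Over 19 B cell genes, 14 were higher in HE with none at 2-fold and a median of 0.15. Red cell genes had 18 of 23 higher in HE with a median of 0.23, and Gata1, their transcription factor, had 4.01 FPKM in HE, 2.36 in HO and 0.142 in WT. The 5 higher in HO were Tfrc (log2 -0.62), the globin genes Hbb-bt (-0.36), Hba-a2 (-0.14) and Hbb-bs (-0.07), and Fech (-0.01). The globin gene Hba-a1 was higher in HE (0.23). For 22 of the 23, WT was below both mutants. Platelet genes were divided, with 10 of 18 (55.6%) higher in HE, near the share of all genes, and a median of 0.08. Among them Itga2b, a subunit of the fibrinogen receptor, had 5.62 FPKM in HE, 4.42 in HO and 1.08 in WT, Gp9 was level at 7.16 FPKM in HE and 7.04 in HO, and Rasgrp2, which activates that receptor, had 5.67 FPKM in HE, 3.94 in HO and 1.82 in WT. Of 26 cell cycle genes, 13 were higher in each library and all 26 were lowest in WT.

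The body clock runs on a loop in which ARNTL (BMAL1), paired with CLOCK or NPAS2, switches on Per, Cry and Nr1d genes, whose products switch the loop off again. PAR-domain factors such as DBP are outputs of the same loop, and their transcripts cycle through the day in opposite phase to Arntl. Of 18 clock genes compared, 11 were higher in HO, 4 at least 2-fold, and 7 were higher in HE, 1 at least 2-fold, with a median of -0.38. Dbp had 2.18 FPKM in HE, 17.4 in HO and 19.6 in WT, or 7.98-fold (6.74 to 9.502). Nr1d1, which encodes the repressor REV-ERB alpha, had 25.5 FPKM in HE, 60.9 in HO and 52.6 in WT, and Nr1d2 had 15.1 FPKM in HE, 38.2 in HO and 27.7 in WT. In these outputs HE was the lowest of the 3 libraries.

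The activators Arntl and Npas2 stood on the other side of the clock. Arntl had 6.45 FPKM in HE, 3.53 in HO and 4.33 in WT, or 1.83-fold (1.65 to 2.02), and Npas2 had 7.53 FPKM in HE, 2.51 in HO and 6.46 in WT, or 2.996-fold (2.61 to 3.45). Nfil3, a repressor at the sites that DBP activates, had 20.5 FPKM in HE, 11.3 in HO and 12.02 in WT. Cry1, a late repressor of the loop, had 7.38 FPKM in HE, 4.41 in HO and 5.18 in WT. Per2 had 1.92 FPKM in HE, 3.63 in HO and 2.72 in WT, Per1 was level at 13.9 FPKM in HE and 14.5 in HO, and Clock was level at 7.87 FPKM in HE and 7.61 in HO. The ratio of Dbp to Arntl was 0.338 in HE, 4.93 in HO and 4.53 in WT. The time of day at which tissue was taken is not given in the sources used here, so collection time and genotype cannot be told apart.

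The promoters of clock genes hold short sites for these factors, shown here because genes with such sites lay on both sides. Promoters came from RefSeq (GRCm38.p6) and were searched on both strands over the 250 bases before the start of transcription, for CACGTG (bound by CLOCK and ARNTL), TNGGTCA (bound by the ROR and REV-ERB receptors) and TTATGTAA (bound by DBP, TEF, HLF and NFIL3). A TNGGTCA match can run into a CACGTG match, as both hold CA at that end, and TTATGTAA cannot overlap either. Over all 32851 promoters of this length, 6.02% held CACGTG, 9.19% held TNGGTCA and 0.819% held TTATGTAA. Of 15 clock genes compared with a promoter in the table, 4 held CACGTG (3 higher in HO and 1 in HE), 5 held TNGGTCA (2 and 3) and 1 held TTATGTAA. Stretches of 100 bases follow, 5′ to 3′ on the strand of the gene, with the motif in capitals.
Tef (CACGTG, chr15:81802499-81802598, plus strand): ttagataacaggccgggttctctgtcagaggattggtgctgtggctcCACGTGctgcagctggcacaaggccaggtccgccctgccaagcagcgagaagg
Bhlhe41 (CACGTG, chr6:145865521-145865620, minus strand): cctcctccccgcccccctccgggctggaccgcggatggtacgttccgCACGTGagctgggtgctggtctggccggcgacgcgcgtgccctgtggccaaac
Cry1 (CACGTG, chr10:85185062-85185161, minus strand): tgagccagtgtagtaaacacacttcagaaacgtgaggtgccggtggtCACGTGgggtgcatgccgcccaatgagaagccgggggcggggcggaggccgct
Arntl (TNGGTCA, chr7:113207218-113207317, plus strand): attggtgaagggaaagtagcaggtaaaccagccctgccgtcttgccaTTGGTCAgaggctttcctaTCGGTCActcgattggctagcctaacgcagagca
Nfil3 (TNGGTCA, chr13:52981040-52981139, minus strand): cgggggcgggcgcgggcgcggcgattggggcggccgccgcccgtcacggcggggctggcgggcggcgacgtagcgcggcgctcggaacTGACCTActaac
Per3 (TTATGTAA, chr4:151044816-151044915, minus strand): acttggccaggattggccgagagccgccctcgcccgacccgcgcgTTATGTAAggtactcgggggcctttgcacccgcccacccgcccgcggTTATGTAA
Tef, Bhlhe41 and Per3 were higher in HO (log2 -0.88, -0.88 and -0.90), and Cry1, Arntl and Nfil3 were higher in HE (0.63, 0.72 and 0.81). The match in Nfil3 lies on the opposite strand and reads TGACCTA here. Dbp, Nr1d1, Nr1d2, Hlf and Npas2 held none of these letters in the window searched. A match is a description of the sequence, and binding was not measured.

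**Figure D5:**
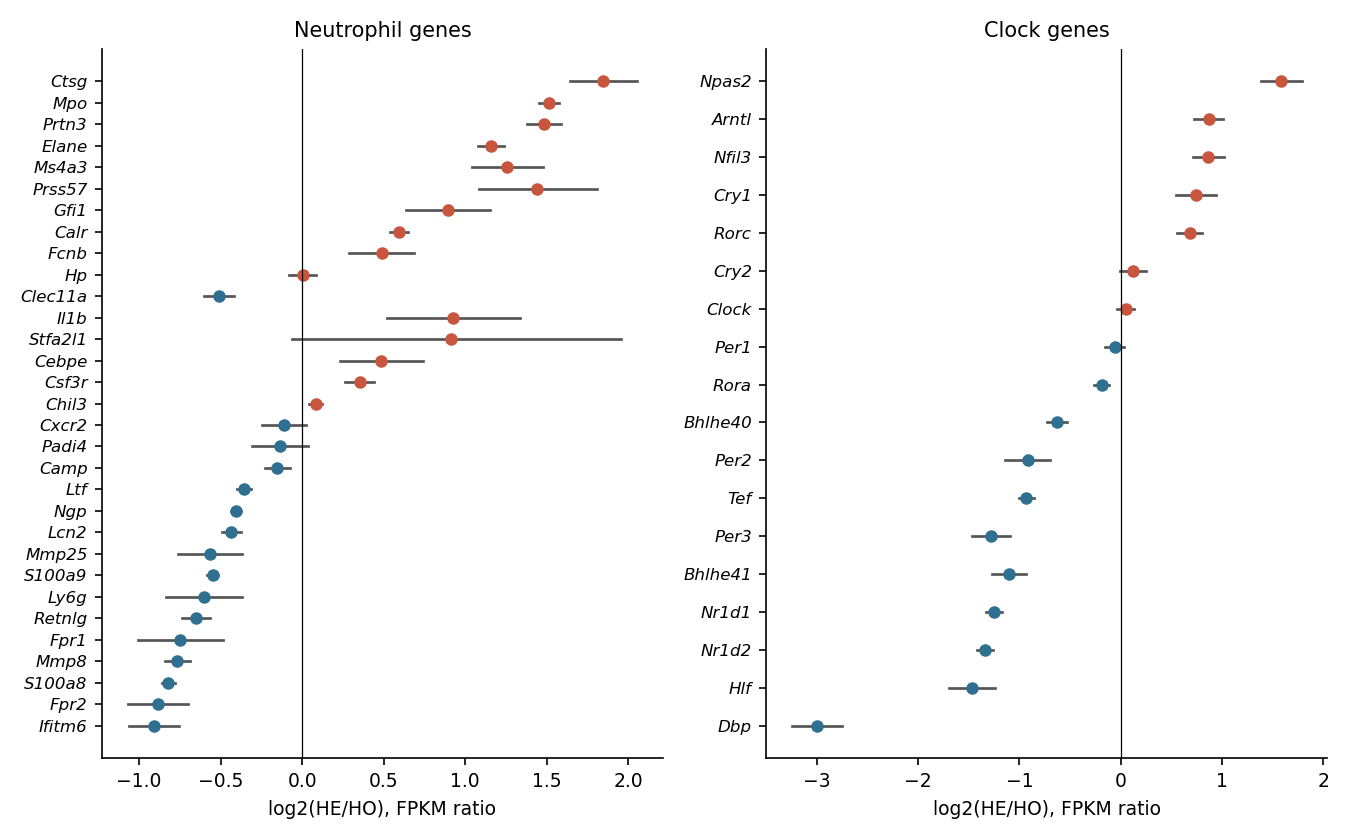
Fold between the libraries as log2(HE/HO) of FPKM without an added value, with 95% counting intervals as lines, red where HE was higher and blue where HO was higher. Of the primary granule genes (Ctsg to Clec11a) 10 of 11 lie to the right, of the late granule and surface genes (Il1b to Ifitm6) 15 of 20 lie to the left, and clock genes run from Npas2 on the right to Dbp on the left.

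Several of the widest differences came from short or repeated RNAs that poly(A)-selected libraries measure poorly. Rn18s, the ribosomal 18S RNA, had 844 FPKM in HE, 227 in HO and 95.1 in WT. Mir466i had 17 fragments in HE and 0 in HO, the small RNA Gm22781 had 10 and 0, and the pseudogene Mrps36-ps1 had 38 and 1 (HE over HO 35.8-fold (6.05 to 1451)). On the other side the small RNAs n-R5s204 and Gm22772 had no fragment in HE. The predicted genes Gm13071, Gm45777 and Gm37416 were higher in HE, with log2 values of 1.71, 1.70 and 1.62. The mitochondrial gene mt-Nd4l had 450.1 FPKM in HE, 131 in HO and 165 in WT, but 98.5% of its 100-base sequences occur in other genes. Lars2, a mitochondrial tRNA synthetase, had 10.5 FPKM in HE, 3.03 in HO and 2.005 in WT, and it was chosen after its values were seen. For Rn18s, mt-Nd4l and Lars2, the HE library was the highest of the 3.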

How the data were processed

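Poly(A)-selected RNA of mandibular condyles from WT, Dspp+/- and Dspp-/- mice had been sequenced in pairs of 150 bases. The authors deposited 1 table with a value per gene and genotype, whose unit is not named, and it was read as FPKM because the values are whole fragments over exon length. The submitters' processing notes list FastQC 0.11.5, HISAT2 2.1.0, StringTie 1.3.3b and DESeq 1.28.0, without roles, and name a human genome build for these mouse data. The deposited positions were used only to find the genes within 10 Mb of Spp1, as only 589 genes lie where GRCm38 has them.

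FPKM times the merged exon length in GENCODE M21, which covers 26652 of the genes, gave whole fragments (within 0.05) for at least 98.6% of genes under 100 fragments. The table's values were compared with a pseudocount of 1 FPKM, genes averaging at least 1 FPKM and a 2-fold threshold. With 1 library per genotype no test was possible, and the study's Kruskal-Wallis test could not be entered. The steps were checked on simulated data.

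The members and the 40 gene lists were chosen with earlier results of these data known, and 6 lists (fatty acid oxidation, fatty acid synthesis, thermogenic fat, endoplasmic reticulum chaperones, glucocorticoid response and muscle atrophy) were added after values were seen. Genes were named from the 12 widest differences each way (3 for variable segments), the 2 most abundant and the widest members of each list, list members that the study's immunostaining and heatmap show, and sex-linked genes. The rule also held 4 heatmap genes that belong to no list, which are not described because their names were read from a picture. Other members were named after their values were seen. Alternatives were 13 planned and 2 added ones. Dspp, Gp1bb and Ahsp were not analysed here. Of the genes this rule names, 1 is not reported here. Scripts ran in Python 3.11.15 with pandas 2.3.3, numpy 2.4.6, matplotlib 3.10.9 and scipy 1.17.1.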

Additional observations from a re-analysis of the deposited data

How the results depend on the processing

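No paired analysis was possible because the labels carry no replicate numbers and each genotype has 1 library, and for the same reason no replicate could be left out. The counts of genes at least 2-fold higher in HE and in HO were 214 and 223 with a pseudocount of 0.1, 36 and 36 with 5, 170 and 172 without a filter, 52 and 57 for genes averaging 5 FPKM or more, 563 and 441 at 1.5-fold, and 13 and 15 at 4-fold. Scaling to housekeeping genes lowered the median of all genes to -0.075, and gave medians of -0.15 for smooth muscle, -0.11 for cell cycle, -0.22 for BMP and TGF-beta, -0.51 for Y-linked and 0.30 for fatty acid oxidation genes. Smooth muscle was -0.068 with scaling that left out mitochondrial genes, osteoclast -0.24 with a pseudocount of 5, and interferon response 0.19 with 0.1. The other 519 values of list medians moved by less than the spread of their members. Over all alternatives the osteoblast median ran from -0.78 to -0.54, cartilage from -0.76 to -0.38, adipocyte from -1.21 to -0.08, fatty acid oxidation from 0.30 to 0.49, primary granules from 0.56 to 1.16, late granules from -0.55 to -0.37 and clock from -0.59 to -0.11. Other medians moved by more than 1.5 times under some alternative, from 0.02 to 0.36 for B cell, 0.20 to 0.42 for MHC class II, 0.10 to 0.25 for erythroid, 0.02 to 0.19 for fast muscle, 0.19 to 0.34 for glycolysis, 0.19 to 0.38 for heat shock, 0.06 to 0.30 for chaperone, 0.03 to 0.23 for glucocorticoid, 0.09 to 0.24 for marrow niche, -0.43 to -0.18 for Wnt, -0.58 to -0.24 for matrix enzyme, -0.38 to -0.19 for osteocyte, -0.30 to -0.10 for RANKL and -0.34 to -0.03 for fatty acid synthesis genes. The medians of the IGF, cell cycle, endothelial, housekeeping, immediate early, inflammatory, interferon, keratinocyte, macrophage, muscle atrophy, plasma cell, platelet and smooth muscle lists, all near 0, changed sign under at least 1 alternative. Centring by GC content and requiring at least 50 fragments, both chosen after seeing the data, gave counts of 97 and 98, and of 78 and 79. Depth limits genes near the floor of 3 fragments, which is 0.127 FPKM in HE and 0.135 in HO for a gene of 1 kilobase of exon.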

Other observations

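The remaining gene lists had medians between -0.18 and 0.22, beside 0.04 for all genes. Stromal cells of the marrow niche had a median of 0.22, with 11 of 14 genes higher in HE, and Angptl4, an inhibitor of lipoprotein lipase, had 8.44 FPKM in HE, 4.01 in HO and 4.199 in WT. Their main chemokine gene, Cxcl12, had 67.5 FPKM in HE, 55.6 in HO and 41.3 in WT. Schwann cell and nerve genes had a median of -0.08 over 11 genes, and the 5 keratinocyte and gland genes had a median of 0.07. Immediate early genes had a median of 0.02 over 25 genes, and interferon response genes 0.14 over 14. The 13 genes of the RANKL and CSF1 axis had a median of -0.18, with 10 higher in HO. The 20 housekeeping genes had a median of 0.12, with 11 higher in HE and 1 at least 2-fold.

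Glucocorticoid response genes, a list added after values were seen, had a median of 0.16 over 15 genes, with 2 at least 2-fold higher in HE. Serpina3n, a secreted protease inhibitor, had 8.78 FPKM in HE, 3.005 in HO and 5.098 in WT, while Tsc22d3, a direct target of the glucocorticoid receptor, had 87.3 FPKM in HE, 91.6 in HO and 153 in WT. Muscle atrophy genes, a list added in the same way, had a median of 0.08 over 13 genes. The ubiquitin ligases of muscle wasting were nearly level, with 16.96 FPKM in HE and 15.2 in HO for Trim63 and 26.9 FPKM in HE and 25.3 in HO for Fbxo32. The 15 mitochondrial genes compared had a median of 0.01.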
